A study of Homo sapiens with 95 samples.

Results

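The response of the GFP control line of AALE cells to cigarette smoke condensate (CSC) was measured in 3 CSC-treated and 3 DMSO-treated samples, which are 6 of the 95 samples of the series. AALE cells come from the human bronchial epithelium and were immortalized. The GFP cells had been transfected with the pSpCas9-EGFP plasmid PX458, which carries the Cas9 nuclease, and had received no guide RNA, so the treated and the control samples share Cas9, EGFP and the immortalization. Cells were grown toward confluency over 24 h in multiwell plates, and 24 μg/ml CSC or the vehicle DMSO was added in fresh medium. The time from exposure to harvest is not given in the sources used here. For comparison, 3 GFP samples with 173 μM benzo(a)pyrene (BaP), a single polycyclic aromatic hydrocarbon, 3 GFP samples with 490 μM of the tobacco nitrosamine NNK, and 3 CSC-treated and 3 DMSO-treated samples of the HcRed line, which carries an empty overexpression vector with a red reporter, were used. Transcripts were counted by sparse full length (SFL) sequencing, a pooled RNA-seq method with barcodes for each sample. Of the 27978 genes listed, 14328 had a mean count above 1 over the 6 samples and were tested, 4159 had reads but a lower mean, and 9491 had no read.

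CSC is the particulate fraction of smoke, and it holds polycyclic aromatic hydrocarbons and electrophiles. Such hydrocarbons bind the aryl hydrocarbon receptor (AhR), which pairs with ARNT in the nucleus and induces the CYP1 enzymes that oxidize them. Electrophiles release the transcription factor NRF2 from its repressor KEAP1, and NRF2 induces enzymes of glutathione and thioredoxin metabolism. In airway epithelium CYP1A1 and NQO1 are known as genes induced by smoke.

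The 6 libraries held 987704 to 1517412 counted reads, so that 3 counts correspond to 1.98 to 3.04 CPM (counts scaled to a common library total), and intervals from counts cover counting error only. Replicate libraries differed by more than counting noise, with a chi-square per degree of freedom of 1.14 to 1.5. The cells had the markers of airway basal cells: KRT5 stood at 3486, 3636 and 3405 CPM with DMSO and 3069.7, 3140.3 and 2809 CPM with CSC, and TP63 had 216 to 358 reads per library. The secretory markers SCGB1A1 and MUC5AC and the fibroblast marker COL3A1 had no read in any of the 6 libraries. The ciliated cell factor FOXJ1 had at most 2 reads and the leukocyte gene PTPRC at most 1. The summed level of the 10 listed secretory markers was 3.82 to 8.60 CPM over the 6 libraries, and that of the 10 leukocyte and endothelial markers was 8.73 to 18.2 CPM. The 10 ciliated markers summed to 24.3 to 29.6 CPM with DMSO and 18.2 to 21.8 CPM with CSC.

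After CSC, 1717 genes rose and 1858 fell in the GFP cells at an adjusted p under 0.05 (limma-voom, Benjamini-Hochberg over 14328 genes), which is 12% and 13.0% of the genes tested. A change of at least 2-fold was found for 364 of the genes that rose and 118 of those that fell. The large changes of this fit were thus mostly rises, and they were not counted after the GC correction given below. The transcripts that rose were rich in G and C: their median GC content was 58.1%, against 39.3% for those that fell and 47.7% for those without a call. The libraries moved in the same way. The mean GC content of the counted transcripts was 45.6% to 45.9% in the 3 DMSO libraries and 47.3% to 47.4% in the 3 CSC libraries, and in the 8 lines of the series the 24 DMSO libraries lay between 45.6% and 46.9% and the treated ones between 46.8% and 48.4%. After a correction of every library for GC content and transcript length, 460 genes rose and 482 fell (3.43% and 3.60% of 13407 genes with a known GC content). Of the 1699 risen and 1785 fallen genes with a known GC content, 316 and 350 were called in the same direction after the correction. The DMSO libraries of the series had a median of 46.3%, against 47.7%, 47.6% and 47.7% with CSC, BaP and NNK. This shift goes with treatment in the GFP and HcRed lines alike, so RNA composition and library preparation cannot be told apart for it. Neither was tested, and corrected counts are given beside the gene groups of this contrast.

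**Figure D1:**
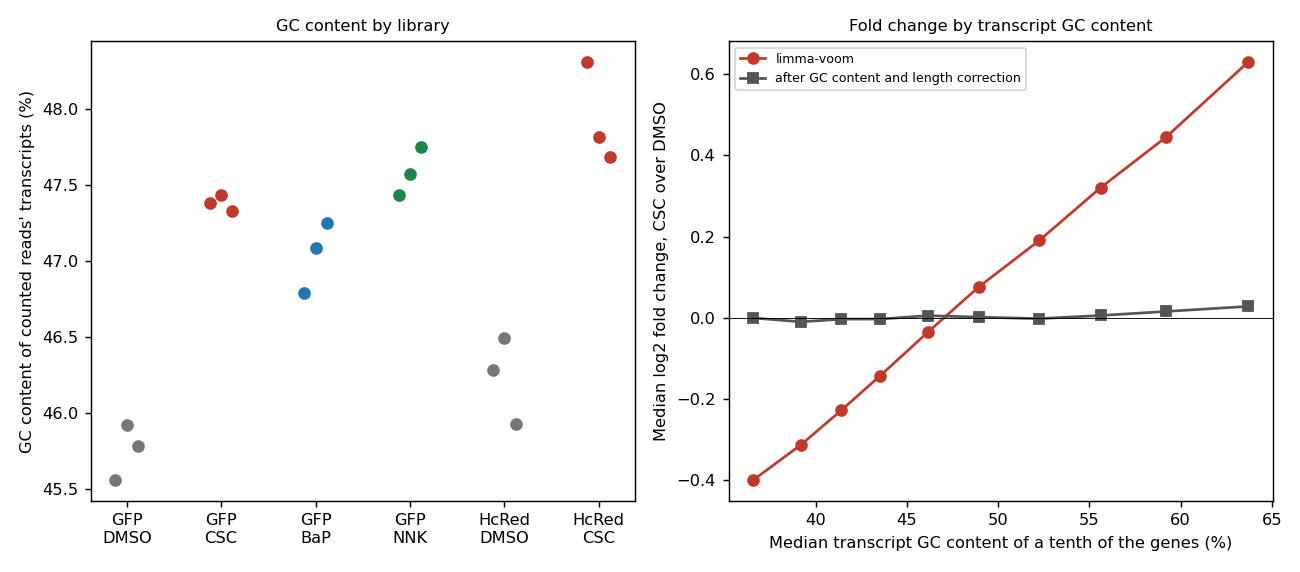
Left, mean GC content (%) of the counted transcripts in each library, by line and treatment. Right, median log2 fold change of CSC over DMSO in GFP cells, before and after the correction, for 10 equal groups of genes ordered by transcript GC content (%). The uncorrected medians run from -0.40 to 0.63, the corrected ones from -0.01 to 0.03. The correction takes the GC trend out of each library, so corrected medians near 0 follow from it and are no separate result.

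The largest changes were rises of AhR targets. CYP1A1, which oxidizes polycyclic hydrocarbons (chromosome 15, 75011883 to 75017877, minus strand, GRCh37), had 11, 5 and 10 reads or 10.7, 4.77 and 7.81 CPM with DMSO and 506, 546 and 409.8 CPM with CSC. The groups were far apart, with a fold change of 62.8 (log2 5.97 ± 0.32 SE, adjusted p = 1.21e-24, limma-voom, n = 3 against 3). CYP1B1, a related hydrocarbon and oestrogen hydroxylase (chromosome 2, 38294116 to 38337044, minus strand), went from 46.6, 52.5 and 69.5 CPM to 706, 719 and 812 CPM, a fold change of 13.1 (log2 3.71 ± 0.12, adjusted p = 4.03e-36). AHRR, the repressor that competes with AhR for ARNT, had 3 reads in the DMSO libraries together and 57 in the CSC libraries, a ratio of 18.0 with an exact 95% interval from counting of 5.85 to 89.8 (adjusted p = 2.36e-05, limma-voom). Each of the 3 DMSO libraries held a single AHRR read, and the CSC libraries held 18, 21 and 18.

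TIPARP, an ADP-ribosyltransferase that also damps AhR, stood at 104, 105 and 110.2 CPM with DMSO and 309.9, 298 and 301 CPM with CSC (a fold change of 2.84, adjusted p = 9.24e-21, limma-voom). Its 6 values split into levels with hardly any spread inside a group. The aldehyde dehydrogenase ALDH3A1 went from 13.6, 13.4 and 17.2 CPM to 48.8, 63.5 and 60.6 CPM (log2 1.94 ± 0.24, adjusted p = 1.31e-09). Of the 9 AhR targets listed and tested, 7 rose and none fell, with a median log2 fold change of 1.94 against 0.0039 over all genes, and 7 rose after the GC correction. The other 2 of the 7 were NQO1, which is also on the list of NRF2 targets, and the glucuronosyltransferase UGT1A6. The exons of UGT1A6 are partly shared with other UGT1A genes. UGT1A6 had 5, 4 and 7 reads with DMSO and 12, 14 and 14 with CSC (adjusted p = 0.0356, limma-voom), and of the 6 fits without 1 library it passed 0.05 only in the fit without CSC replicate 2. CYP1A2, with no read in the DMSO libraries and 1, 1 and 5 in the CSC libraries, did not pass the test (adjusted p = 0.114), nor did NFE2L2, which encodes NRF2 (log2 -0.16 ± 0.09, and 0.10 after the GC correction). The receptor itself was not called, with AHR at 201, 211 and 209 CPM and 199.9, 175 and 188 CPM (log2 -0.15 ± 0.09, adjusted p = 0.226, and 0.18 after the GC correction), nor was its partner ARNT (log2 0.07 ± 0.14). Of the 7 genes of the AhR complex 1 rose and the chaperones HSP90AA1, HSP90AB1 and PTGES3 fell, and after the correction none rose and 2 fell.

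The AhR binds the xenobiotic response element, whose core is GCGTG read on either strand. The 250 bases before the start site of 3 of the targets that rose are shown, from RefSeq on GRCh38.p14 and written 5′ to 3′ along the strand of the gene, with each core in capitals (CACGC is the core on the other strand). They come from chr15:74725529-74725778 (minus strand), chr3:156674340-156674589 (plus strand) and chr5:321464-321713 (plus strand).
CYP1A1: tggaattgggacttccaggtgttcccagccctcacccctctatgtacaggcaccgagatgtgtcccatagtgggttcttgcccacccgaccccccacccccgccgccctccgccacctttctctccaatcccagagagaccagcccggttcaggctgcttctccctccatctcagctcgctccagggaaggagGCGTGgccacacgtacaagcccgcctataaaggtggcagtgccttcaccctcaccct
TIPARP: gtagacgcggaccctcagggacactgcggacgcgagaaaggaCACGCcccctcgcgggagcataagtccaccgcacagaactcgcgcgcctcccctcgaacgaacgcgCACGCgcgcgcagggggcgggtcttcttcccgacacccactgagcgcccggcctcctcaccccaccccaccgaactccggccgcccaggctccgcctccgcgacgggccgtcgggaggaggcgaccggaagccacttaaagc
AHRR: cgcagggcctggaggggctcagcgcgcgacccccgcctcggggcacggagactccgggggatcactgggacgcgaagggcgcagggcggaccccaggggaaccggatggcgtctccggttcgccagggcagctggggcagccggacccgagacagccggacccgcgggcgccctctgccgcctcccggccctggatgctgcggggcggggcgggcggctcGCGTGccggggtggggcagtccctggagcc
CYP1A1 and AHRR each had 1 match in this window, which began at position -57 and -30 from the start site, and TIPARP had 2, at -208 and -142. A promoter was matched for 7 of the 9 listed targets, and 5 of the 7 held the core, against 32.2% of 35116 promoters. NQO1 was among the matched targets without it. The core was not particular to this list. It was also found for 7 of 17 NRF2 targets, and for 5 of 10 early genes and 10 of 23 mitosis genes of the lists given below. A match describes the letters and not a bound site.

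**Figure D2:**
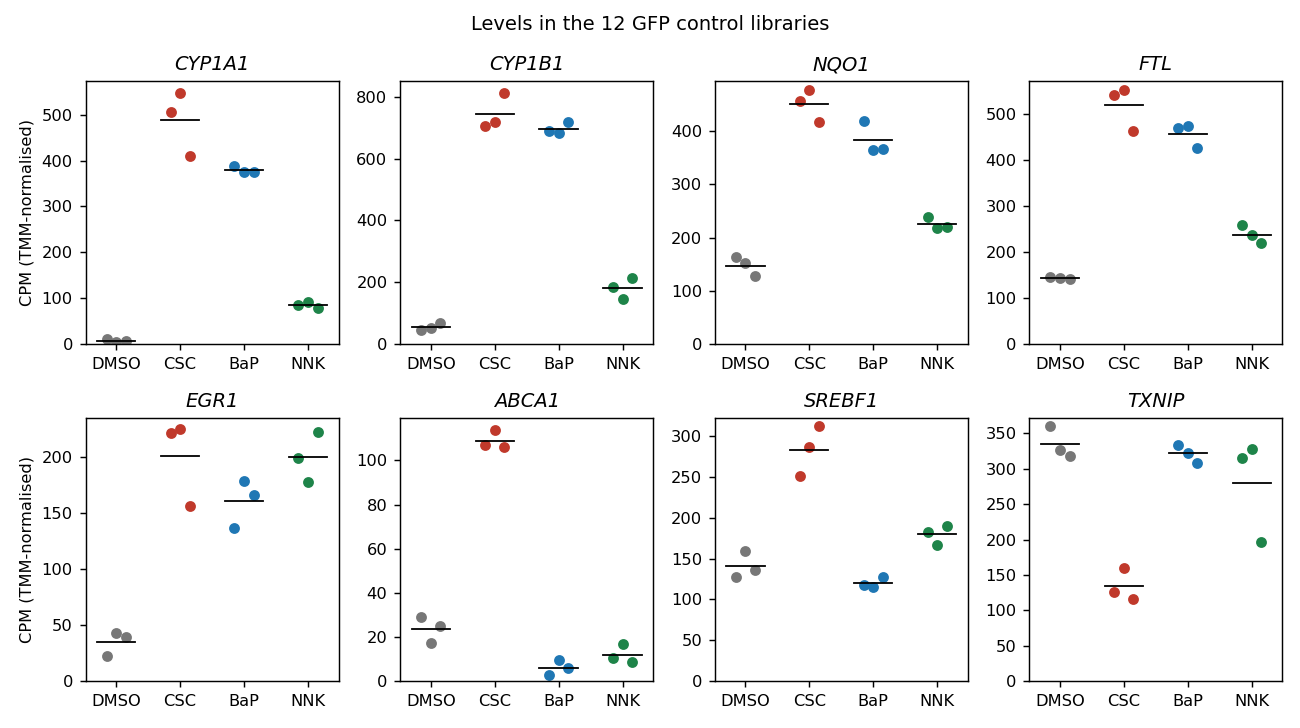
TMM-normalised CPM of 8 genes in the 12 GFP libraries by treatment; each point is a library and each bar the mean of 3. CYP1A1, CYP1B1, NQO1 and FTL were high with CSC and BaP, whereas the 3 CSC libraries held the highest values of ABCA1 and SREBF1 and the lowest of TXNIP.

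The targets of NRF2 rose as a group. Of 25 tested, 17 rose and none fell, with a median log2 fold change of 0.69, and after the GC correction 15 rose, none fell and the median was 0.75. NQO1, a quinone reductase (chromosome 16, 69740899 to 69760571, minus strand), stood at 163, 152 and 127 CPM with DMSO and 456, 476 and 416 CPM with CSC, a fold change of 3.11 (log2 1.64 ± 0.09, adjusted p = 1.32e-24, limma-voom). FTL, the ferritin light chain that stores iron, went from 147, 143 and 141 CPM to 541, 551 and 462 CPM, a fold change of 3.63 (adjusted p = 7.37e-28), and the heavy chain FTH1 from 334, 319.7 and 389.8 CPM to 668, 726 and 795 CPM. Every CSC library lay above every DMSO library for these 3 genes. The core of the antioxidant response element, TGACNNNGC on either strand, was found in the 250 bases before the start site of 4 of the 17 tested NRF2 targets with a promoter, against 10.9% of all promoters, and NQO1 and SRXN1 had no match there. Both ferritin genes have processed copies in the genome to which their reads could have been split in counting.

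TXNRD1, thioredoxin reductase, went from 291 ± 17.5 to 595 ± 4.81 CPM (SD, n = 3) with log2 1.03 ± 0.07 (adjusted p = 1.65e-20, limma-voom), and SRXN1, which repairs peroxiredoxins, from 86.1 ± 4.70 to 198 ± 11.8 CPM with log2 1.21 ± 0.11 (adjusted p = 3.99e-14). For glutathione, both subunits of the rate-limiting synthetic enzyme rose, GCLC with log2 0.75 ± 0.10 and GCLM with log2 0.59 ± 0.10, and the glutathione conjugate exporter ABCC3 with log2 1.35 ± 0.17. OSGIN1 had 1, 1 and 2 reads with DMSO and 11, 11 and 5 with CSC (adjusted p = 0.00800), and 0.113 after the GC correction. TKT of the pentose phosphate pathway rose by log2 0.79 ± 0.06. Haem oxygenase HMOX1, often a strong NRF2 target, had only 9, 4 and 3 and 8, 9 and 9 reads and no call (log2 0.74 ± 0.47). The cystine transporter SLC7A11 was not called either: its level was 346, 365 and 312 CPM with DMSO and 319, 322 and 294 CPM with CSC (log2 -0.12 ± 0.07, adjusted p = 0.270), and after the correction it was higher with CSC (log2 0.30, adjusted p = 0.00514). The aldo-keto reductases AKR1C1, AKR1C2 and AKR1C3 had at most 11 reads in any of the 6 libraries and are near copies whose reads could be exchanged; AKR1C3 was called (adjusted p = 0.0161), but not without CSC replicate 1 or DMSO replicate 3 (adjusted p = 0.0563 and 0.50) nor with the replicate block (adjusted p = 0.143). KEAP1, the repressor of NRF2, rose from 49.5, 54.4 and 60.9 CPM to 91.8, 90.0 and 91.8 CPM (log2 0.72 ± 0.14, adjusted p = 5.98e-05), a call lost after the correction (adjusted p = 0.393).

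**Figure D3:**
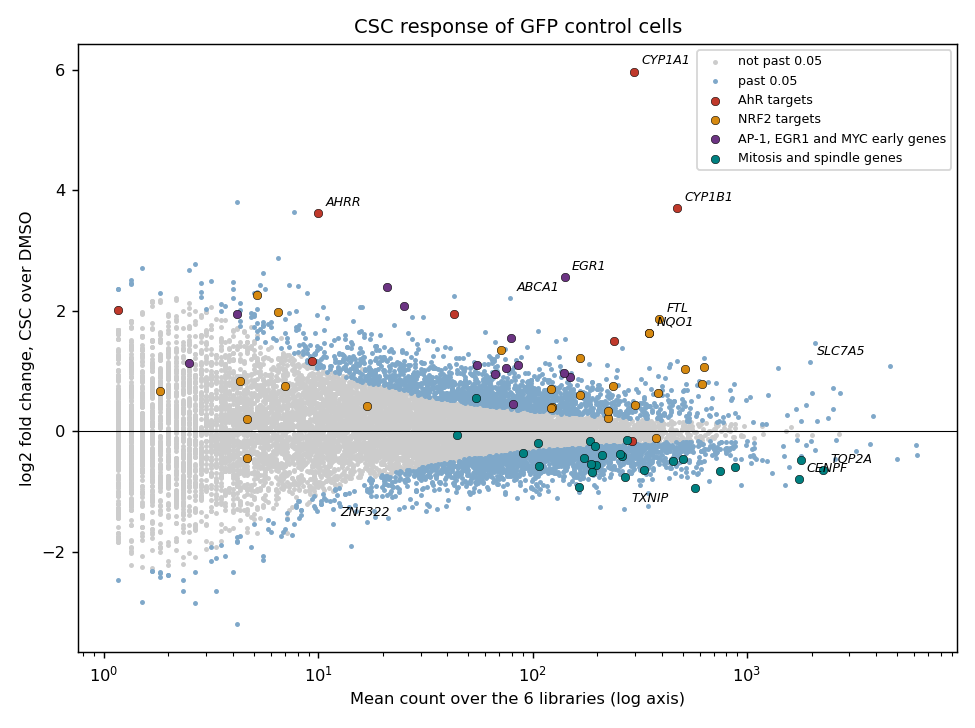
log2 fold change of CSC over DMSO in GFP cells against the mean count over the 6 libraries (log axis) for 14328 genes; members of 4 lists are coloured. CYP1A1 stands at 5.97, 12 of 13 early genes rose and 19 of 26 mitosis genes fell.

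Early genes of growth factor signalling rose next. AP-1 is a dimer of FOS and JUN proteins, and its genes, EGR1 and MYC are switched on by the ERK kinase cascade. Of 13 early genes tested 12 rose and none fell, with a median log2 fold change of 1.10, and after the GC correction 10 rose and none fell. EGR1, a zinc finger transcription factor (chromosome 5, 137801168 to 137804992, plus strand), went from 22.3, 42.9 and 39.1 CPM to 222, 225 and 156 CPM, a fold change of 5.89 (log2 2.56 ± 0.18, adjusted p = 1.65e-19, limma-voom). FOS went from 6.79, 6.68 and 10.2 CPM to 39.2, 36.4 and 28.3 CPM and FOSL1 from 1.94, 5.73 and 10.2 CPM to 28.7, 33.1 and 25.2 CPM. The CSC libraries lay above the DMSO libraries for all 3, although the DMSO values of FOSL1 spread widely and leaving out 1 library moved its log2 fold change between 1.85 and 2.94. The FOSL1 value of DMSO replicate 1, 1.94 CPM, lay under the 2.82 CPM that 3 counts make in that library. MYC rose by log2 1.54 ± 0.17 (adjusted p = 2.78e-11) and JUN by log2 0.95 ± 0.16.

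EGR1 is known to be driven through CArG boxes, the sites of serum response factor. The 250 bases before its start site (chr5:138465229-138465478, plus strand, RefSeq on GRCh38.p14) are shown with each CArG box in capitals.
EGR1: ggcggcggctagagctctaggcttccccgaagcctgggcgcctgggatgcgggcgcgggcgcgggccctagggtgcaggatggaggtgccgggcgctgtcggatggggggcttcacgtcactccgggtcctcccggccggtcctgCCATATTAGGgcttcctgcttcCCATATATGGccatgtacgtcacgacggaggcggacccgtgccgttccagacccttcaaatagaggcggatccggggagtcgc
The 2 boxes began at positions -105 and -83, and 1.16% of the promoters of this length held at least 1. Of the 10 early genes with a promoter EGR1 was the 1 with a box, and FOS had none in this window.

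ERK feedback genes rose too, 9 of 11 with none falling (median log2 fold change 1.25, and 7 of 11 after the correction). The list holds genes that limit ERK signalling and also the transcription factor ETV5. SPRY4, an inhibitor of receptor tyrosine kinase signalling, had 2, 5 and 4 reads with DMSO and 19, 19 and 14 with CSC (log2 2.07 ± 0.48, adjusted p = 5.70e-04, limma-voom). The phosphatases DUSP1 and DUSP4 rose by log2 1.66 ± 0.15 and 1.65 ± 0.20, the transcription factor ETV5 by log2 1.16 ± 0.17 and PHLDA1 by log2 1.25 ± 0.17. DUSP6 rose by log2 1.61 ± 0.39 although its groups overlapped, with 7.76, 10.5 and 3.91 CPM against 34.4, 23.8 and 10.1 CPM. Among 7 EGF receptor ligands 3 rose and 4 after the correction, but 1 with DESeq2 and 1 to 4 without 1 library. EREG, epiregulin, went from 20.4, 11.5 and 13.3 CPM to 28.7, 35.1 and 36.3 CPM (log2 1.18 ± 0.26, adjusted p = 2.60e-04, limma-voom). AREG, amphiregulin, had 0, 3 and 2 reads with DMSO and 8, 11 and 8 with CSC (adjusted p = 0.00611), a call lost without DMSO replicate 1 (adjusted p = 0.0621). Of 7 genes of the IL-1 family, the CXCL chemokines and their NF-κB feedback 3 rose and 1 after the correction. With DESeq2 1 of them rose, and 1 to 2 without 1 library. IL1A went from 10.7, 11.5 and 19.5 CPM to 51.7, 36.4 and 35.3 CPM (log2 1.51 ± 0.26, adjusted p = 6.73e-06, limma-voom). SECTM1, a secreted and membrane protein of immune signalling, was among the 12 largest rises, from 5.82, 18.1 and 15.6 CPM to 51.7, 58.2 and 71.7 CPM (log2 2.25 ± 0.27), as were the small nucleolar RNA SNORA51 (log2 2.07 ± 0.39) and LINC00886 (log2 2.06 ± 0.38).

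**Figure D4:**
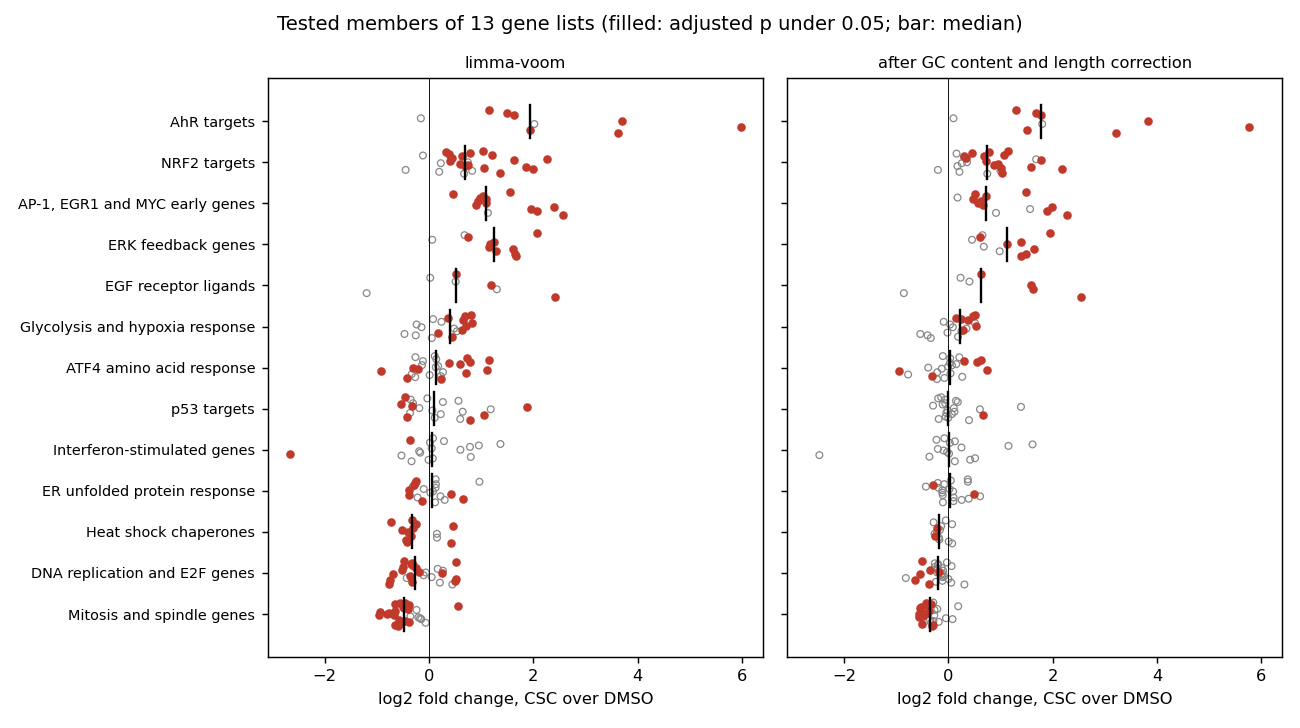
log2 fold change of CSC over DMSO for the tested members of 13 lists, before (left) and after (right) the correction for GC content and length; filled points passed an adjusted p of 0.05 and bars mark the median. The medians of the AhR, NRF2, early and ERK feedback lists lay above 0 in both fits, and that of the mitosis list below 0.

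Several genes of lipid, sugar and amino acid handling rose. ABCA1, which exports cholesterol from cells, went from 29.1, 17.2 and 25.0 CPM to 107, 114 and 106 CPM, a fold change of 4.63 (log2 2.21 ± 0.19, adjusted p = 3.10e-15, limma-voom), and its relative ABCG1 from 20.4, 15.3 and 22.7 CPM to 45.0, 54.9 and 52.5 CPM (log2 1.38 ± 0.22). SREBF1, the master regulator of fatty acid synthesis, went from 127, 159 and 136 CPM to 252, 287 and 313 CPM (log2 1.01 ± 0.10, adjusted p = 1.94e-13), and its target fatty acid synthase FASN from 673, 891 and 781 CPM to 1614, 1558 and 1704 CPM. After the GC correction SREBF1 and FASN had smaller log2 fold changes of 0.42 and 0.38, both still past 0.05, while ABCA1 stood at 2.26. Of 10 fatty acid genes 4 rose, 2 after the correction, and none fell in either fit. The 20 cholesterol synthesis genes split, with 7 rising and 6 falling, against 12% and 13.0% of all genes. After the correction 1 rose and 2 fell, against 3.43% and 3.60%. In the uncorrected fit lanosterol demethylase CYP51A1 fell by 0.53 ± 0.08 on the log2 scale.

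Of 18 glycolysis and hypoxia genes 9 rose and none fell, and 7 after the correction, among them VEGFA (log2 0.80 ± 0.13), the glucose transporter SLC2A1 (log2 0.70 ± 0.10) and GAPDH (log2 0.64 ± 0.04). SLC7A5, the large neutral amino acid transporter, rose from 912, 1173 and 1089 CPM to 2299, 2352 and 2314 CPM (log2 1.14 ± 0.04, adjusted p = 1.45e-33, limma-voom; 0.62 after the correction). Its heavy chain SLC3A2 rose by log2 0.78 ± 0.07. They belong to a list of 24 genes of the ATF4 amino acid response. Of these 8 rose and 4 fell, against 12% and 13.0% of all genes (4 and 2 of 21 after the correction, against 3.43% and 3.60%). DDIT3, the stress factor CHOP, was among those that fell, from 30.1, 30.5 and 21.1 CPM to 13.4, 15.2 and 12.1 CPM (log2 -0.92 ± 0.27, adjusted p = 0.00713), and DDIT4, an inhibitor of mTORC1, rose from 237 ± 6.37 to 509 ± 18.1 CPM (log2 1.11 ± 0.07). ASNS, asparagine synthetase and a usual marker of this response, had 3 to 5 reads in each library and no call.

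Transcripts of cell division fell. Of 26 mitosis and spindle genes 19 fell and 1 rose, with a median log2 fold change of -0.48, and after the GC correction 15 fell, none rose and the median was -0.34. CENPE, a kinetochore motor, went from 692, 653 and 648 CPM to 355, 332 and 344 CPM (log2 -0.95 ± 0.06, adjusted p = 3.37e-20, limma-voom; -0.53 after the correction). CENPF, another kinetochore protein, went from 2054, 1957 and 1836 CPM to 1167, 1099 and 1080.0 CPM (log2 -0.80 ± 0.04), and DNA topoisomerase TOP2A from 2614, 2375 and 2317 CPM to 1540.1, 1563 and 1529 CPM (log2 -0.65 ± 0.04). The 3 CSC libraries lay below the 3 DMSO libraries in each case. HMMR fell with log2 -0.94 ± 0.11, DLGAP5 with log2 -0.76 ± 0.09 and MKI67, the Ki-67 antigen, with log2 -0.47 ± 0.04. The exception was the kinase PLK1, which rose by log2 0.55 ± 0.18 (adjusted p = 0.0163) and was not called after the correction or without CSC replicate 1, CSC replicate 2 or DMSO replicate 1 (adjusted p = 0.138, 0.0652 and 0.0649). In these bulk samples, fewer cells of a type and less RNA per cell cannot be told apart.

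Of 26 DNA replication genes 13 fell and 4 rose, and 6 fell and none rose after the correction. With DESeq2 7 fell and 1 rose, and without 1 library 9 to 13 fell and 1 to 4 rose. Cyclin E2 (CCNE2) fell with log2 -0.76 ± 0.11 and was also called in the corrected fit, whereas the licensing factor CDT1 rose with log2 0.50 ± 0.12 and stood at -0.11 after it. The cell cycle inhibitor CDKN1A (p21) went from 169.8, 198 and 214 CPM to 367, 438 and 395 CPM (log2 1.05 ± 0.08, adjusted p = 2.05e-16, limma-voom). It was the 1 gene of the 20 listed p53 targets that was called in the corrected fit, and before the correction 3 rose and 4 fell. Heat shock chaperones fell in 9 of 13 cases and rose in 2, with HSP90AA1 at 3227, 3088 and 3136 CPM and 2639, 2471 and 2364 CPM (log2 -0.34 ± 0.03); HSP90AA1 and HSPA8 were the 2 that fell after the correction. Among 20 genes of the unfolded protein response of the endoplasmic reticulum 2 rose and 6 fell, and 1 of each after the correction. Of 17 interferon-stimulated genes none rose and 2 fell, and none was called after the correction. The shares over all genes, to be set beside these lists, were 12% risen and 13.0% fallen, and 3.43% and 3.60% after the correction.

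The largest falls were smaller than the largest rises. TXNIP, which binds thioredoxin and limits glucose uptake (chromosome 1, 145438490 to 145442635, GRCh37), went from 360.1, 326 and 318 CPM to 125, 159 and 116 CPM, which is 2.45-fold lower (log2 -1.30 ± 0.10, adjusted p = 4.06e-18, limma-voom; -1.15 after the GC correction). Its relative ARRDC4 went from 66.0, 59.2 and 60.2 CPM to 40.2, 30.4 and 26.2 CPM (log2 -0.95 ± 0.18, adjusted p = 3.17e-05). Of the 12 largest falls TXNIP alone had over 100 reads in every library. The zinc finger genes ZNF322, ZNF674 and ZNF737 had log2 fold changes of -1.54 ± 0.40, -1.42 ± 0.31 and -1.27 ± 0.19, LOC389831, which had no known GC content, one of -1.50 ± 0.33, and AMOT, a scaffold that binds the YAP coactivator, one of -1.45 ± 0.30 (30.1, 21.9 and 29.7 CPM against 9.57, 11.9 and 7.07 CPM). PHACTR3, a regulator of phosphatase 1 and actin, fell from 46.6, 38.2 and 35.9 CPM to 10.5, 19.9 and 16.1 CPM. The centrosome protein CETN3 (log2 -1.29), the nucleosome-binding protein HMGN5 (-1.32), the pseudouridine synthase PUS10 (-1.33), the potassium channel subunit KCNMB3 (-1.29) and LINC01355 (-1.29) complete the 12. HMGN5, PUS10 and KCNMB3 were not called after the GC correction (adjusted p = 0.158, 0.0650 and 0.184). KCNMB3 was not called without CSC replicate 1 (adjusted p = 0.0545) nor LINC01355 without CSC replicate 2 (adjusted p = 0.0892).

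The basal cell keratins moved in both directions. KRT14, the keratin of basal cells, went from 361, 407 and 420.3 CPM to 265, 226 and 199 CPM (log2 -0.79 ± 0.08, adjusted p = 3.32e-12, limma-voom), while KRT17 went from 669, 774 and 717 CPM to 1089.5, 1103 and 988 CPM (log2 0.57 ± 0.05). Of 13 basal markers 5 rose and 4 fell (2 and 3 after the correction), with the desmosomal cadherin DSG3 among those that fell (log2 -0.65 ± 0.08). Of 9 epithelial markers 2 rose and 1 fell (1 and 2 after the correction), and of 10 genes of the squamous cornified envelope 2 rose and none fell (1 and none), KRT17 being also a basal marker. Of 19 matrix and TGF-β response genes 7 rose and 3 fell (3 and 3 of 17 after the correction); thrombospondin THBS1 by log2 0.76 ± 0.09. COL1A1 was the 1 of 3 tested fibroblast markers that rose, also after the correction, from 11, 13 and 19 to 30, 48 and 52 reads, the summed level of the 10 listed fibroblast markers was 13.6 to 20.3 CPM with DMSO and 37.3 to 57.5 CPM with CSC, and DCN and LUM, like COL3A1, were under the count minimum. The part of these markers in the other results was not tested. No tested member of the secretory, ciliated or leukocyte and endothelial lists was called (1, 4 and 2 tested).

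Over all genes 12% rose and 13.0% fell (3.43% and 3.60% after the correction). Of 73 cytosolic ribosomal protein genes, many with processed copies, 20 rose and 13 fell (9 and 9 after the correction), of 31 proteasome subunits 9 rose and 5 fell (6 and none), and of 39 nuclear genes of the respiratory chain 6 rose and 2 fell (3 and 3). Of 4 metallothioneins MT2A rose, also after the correction, from 367, 439.9 and 535 CPM to 759, 711 and 914 CPM (log2 0.80 ± 0.07, adjusted p = 4.69e-14, limma-voom). Of 8 abundant structured noncoding RNAs 6 rose and 1 fell (2 and 1 of 6 after the correction), RMRP, the RNA of RNase MRP, going from 769, 997 and 1062 CPM to 2224, 2616 and 2977 CPM and MALAT1 falling by 0.64 ± 0.09 on the log2 scale. Of the 7 genes perturbed in the study or tied to them, KEAP1 and CDKN2A rose and the other 5 were not called; CDKN2A passed with log2 0.38 ± 0.12 (adjusted p = 0.0171), not after the correction, and not without CSC replicate 1, CSC replicate 2, DMSO replicate 1 or DMSO replicate 3 (adjusted p = 0.0623 to 0.107). The knockout targets FAT1 and CDKN2A were transcribed in all 6 libraries, with 408, 413 and 582 and 84, 104 and 102 reads in the DMSO libraries.

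CSC is a mixture and BaP a single hydrocarbon, and the direct contrast of both exposures in GFP cells shows where they differed. Each was used at a single dose, and whether the doses were equivalent was not tested. What the mixture adds to AhR binding was not tested either. The contrast with BaP uses the same 3 CSC libraries as the contrast with DMSO, and the BaP libraries held 481230 to 1034225 reads. Of 13960 genes tested, 142 were higher with CSC (1.02%) and 56 lower (0.401%). The mean GC content of the BaP libraries was 46.8% to 47.3%, nearer to CSC than that of DMSO was, and after the GC correction 110 were higher and 45 lower. The AhR targets were close: CYP1B1 stood at 689, 681 and 719.8 CPM with BaP (log2 of CSC over BaP 0.09 ± 0.06, adjusted p = 0.592, limma-voom), and of the 9 targets only CYP1A1 was called, at 389, 375 and 375 CPM with BaP (log2 0.36 ± 0.08, adjusted p = 0.00487). That call was lost without BaP replicate 1 and without CSC replicate 2 (adjusted p = 0.0822 and 0.209). Of the 25 NRF2 targets 2 were higher and 1 lower with CSC, the last being GCLC at 358, 321 and 324 CPM with BaP (log2 -0.42 ± 0.09, adjusted p = 0.00225), which was not called without BaP replicate 1 (adjusted p = 0.140).

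The cholesterol exporters differed most. ABCA1 stood at 2.86, 9.28 and 6.08 CPM with BaP, from 3, 5 and 3 reads, against 107, 114 and 106 CPM with CSC (log2 4.35 ± 0.42, adjusted p = 3.77e-13, limma-voom), and ABCG1 at 9.55, 9.28 and 8.11 CPM against 45.0, 54.9 and 52.5 CPM (log2 2.38 ± 0.34). The BaP values of both lay below all 3 DMSO values and the CSC values above them. SREBF1 was at 117, 115 and 128 CPM with BaP (log2 1.24 ± 0.12, adjusted p = 2.27e-13), and FASN, SCD and ACACA were the other 3 of 10 fatty acid genes higher with CSC (log2 0.80 ± 0.05, 0.40 ± 0.04 and 0.40 ± 0.07). TXNIP stood at 334, 323 and 308 CPM with BaP, against 360.1, 326 and 318 CPM with DMSO, and was lower with CSC (log2 -1.26 ± 0.10, adjusted p = 6.23e-16), as was ARRDC4 at 64.9, 74.3 and 68.9 CPM with BaP (log2 -1.10 ± 0.19, adjusted p = 6.93e-05).

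Of 11 ERK feedback genes 6 were higher with CSC than with BaP, against 1.02% of all genes: DUSP4 (37.2, 35.3 and 38.5 CPM with BaP, log2 1.04 ± 0.20, adjusted p = 3.37e-04, limma-voom), DUSP5, ETV5, PHLDA1, SPRED2 and SPRY4. Without BaP replicate 1 DUSP4 kept its call and the other 5 did not (adjusted p = 0.0918 to 0.474). Of 13 early genes MYC alone was higher (log2 0.94 ± 0.18, adjusted p = 3.01e-04). EGR1 stood at 137, 178 and 166 CPM with BaP and was not called (log2 0.38 ± 0.12, adjusted p = 0.0890), although it was without CSC replicate 3 (adjusted p = 0.00217). CYR61, a matrix protein, was higher with log2 1.46 ± 0.26, the small nucleolar RNA SNORD68 with log2 1.72 ± 0.27 and MT2A with log2 0.88 ± 0.08. SPRY4, and among the 6 largest rises DUSP5 and SERPINB2, rested on few reads (adjusted p = 0.0433, 0.0434 and 0.0409) and each was lost without any 1 of the BaP libraries. The 6 largest falls were KRCC1 (log2 -1.77 ± 0.37, adjusted p = 0.00186), TXNIP, PUS10, ARRDC4, ZNF675 and PXMP4, of which PUS10, ZNF675 and PXMP4 had an adjusted p between 0.0430 and 0.0498 and were lost without CSC replicate 1, CSC replicate 2, BaP replicate 1 or BaP replicate 3. Of 26 mitosis genes CENPF and TOP2A were lower with CSC than with BaP (log2 -0.18 ± 0.05 and -0.18 ± 0.04, adjusted p = 0.0412 and 0.00989) and none was higher; neither was called without BaP replicate 1 (adjusted p = 0.612 and 0.505). CENPE was at 386, 358 and 369 CPM with BaP (log2 -0.13 ± 0.08, adjusted p = 0.504).

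The HcRed line offers a second set of CSC and DMSO libraries that shares no sample with the GFP line. In a fit of the 12 samples the difference between the effects of CSC in the 2 lines passed 0.05 for 1 of 14518 genes (0.00689%), and 637 genes had an unadjusted p under 0.05. That gene was SLC7A11. Its level in HcRed cells was 137, 117 and 173 CPM with DMSO and 195, 239 and 284 CPM with CSC, against 346, 365 and 312 and 319, 322 and 294 CPM in GFP cells. The HcRed libraries thus started lower and rose (log2 0.72 ± 0.11), the GFP libraries overlapped between treatments (log2 -0.12 ± 0.10), and the difference of GFP minus HcRed was -0.84 ± 0.14 (adjusted p = 0.00193, limma-voom). It did not pass without HcRed CSC replicate 3, HcRed DMSO replicate 1 or HcRed DMSO replicate 2 (adjusted p = 0.0662, 0.0762 and 0.0663). DDIT3 had the next smallest p: in HcRed cells it stood at 5.18, 18.8 and 3.95 CPM with DMSO and 16.4, 20.3 and 15.0 CPM with CSC, with overlapping groups and log2 1.35 ± 0.38 (adjusted p = 0.00606), and in GFP cells at log2 -0.92 ± 0.34 (difference -2.27 ± 0.48, adjusted p = 0.0647). After the GC correction SLC7A11, DDIT3 and the phosphate transporter SLC20A1 passed (adjusted p = 3.64e-04, 0.0312 and 0.0312).

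CYP1A1 had 2 reads in the HcRed DMSO libraries together and 1280 in the CSC libraries, a ratio of 503 with an exact 95% interval of 139 to 4155, and its difference between the lines was not called (log2 -2.52 ± 1.06, limma-voom). In the HcRed cells 12.8% of all 14518 genes rose and 11.2% fell after CSC. Of the lists, 17 of 25 NRF2 targets, 11 of 13 early genes and 11 of 12 ERK feedback genes rose, and 20 of 26 mitosis genes fell. CENPE had log2 fold changes of -0.95 ± 0.08 in GFP and -0.97 ± 0.09 in HcRed cells, EGR1 of 2.56 ± 0.18 and 2.21 ± 0.13, and ABCA1 of 2.21 ± 0.20 and 2.15 ± 0.21.

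**Figure D5:**
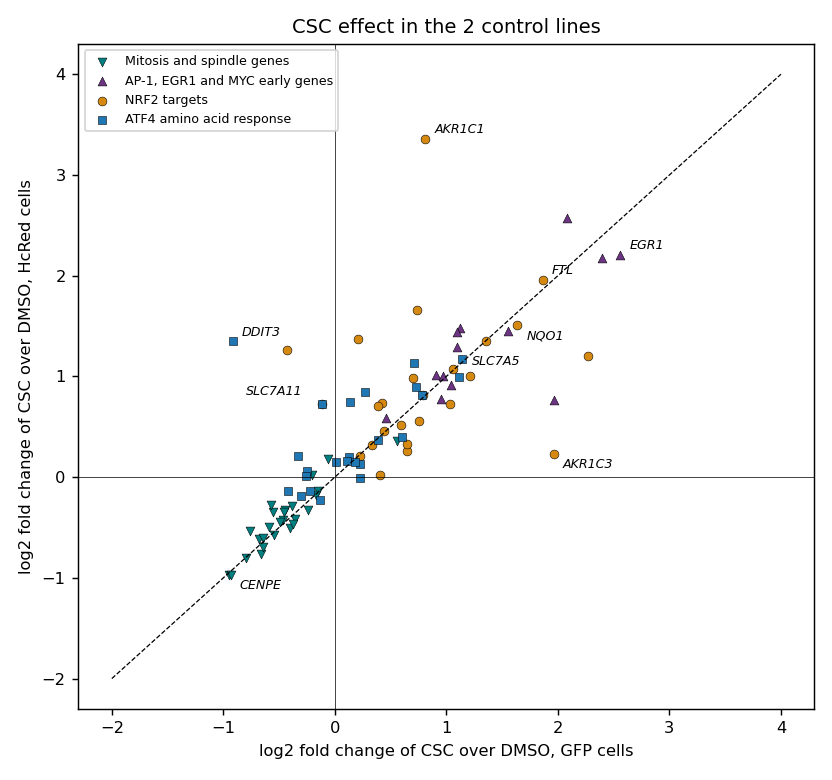
log2 fold change of CSC over DMSO in HcRed cells against that in GFP cells, from the fit of 12 samples, for the members of 4 lists; the dashed line marks equal change. SLC7A11 (-0.12 in GFP, 0.72 in HcRed) and DDIT3 lie above it; low-count genes such as AKR1C1 scatter.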

How the data were processed

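AALE cells were profiled by SFL sequencing of total RNA with single-end reads. Per the labels and the methods of the study, the authors trimmed adapters with cutadapt 1.12, aligned reads to hg19 with STAR 2.5.2b and counted them in RefSeq genes with featureCounts; strand use in counting is not given in the sources used here, so whether reads of overlapping genes on opposite strands were separated is not known. They deposited whole-number read counts per gene without normalization, with 95 samples in 32 groups, and this was the only unit used.

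Groups and replicate numbers came from the sample labels. The study calls the replicates biological. The labels do not say what separates them, such as culture or passage, and p-values measure the spread between these samples. Counts were normalized by TMM in edgeR 4.0.16 and tested with limma 3.58.1 on voom-transformed counts (R 4.3.3, 2-sided). The study's methods also use limma with voom for 2-group contrasts, but keep the 10000 genes of highest median absolute deviation, which was an alternative here. Tests ran in genes with a mean count above 1 over the samples fitted, at an adjusted p of 0.05. The fits covered 3 CSC against 3 DMSO samples, 3 CSC against 3 BaP samples, and the interaction of line and treatment in 12 samples. A log2 fold change is the limma-voom estimate, ± its standard error. CPM values are on TMM-scaled libraries. The alternatives tried were DESeq2 1.42.0, its size factors, edgeR's quasi-likelihood test, other count filters, that gene selection, all 95 samples in 1 fit, the replicate number as a block, a loess correction of each library for GC content and length, and leaving out each library. The tests were also run on simulated counts with known changes, which held no GC trend between groups.

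GC content, length and positions came from the longest transcript of GENCODE models on GRCh37 (24309 symbols, 86.9%, matched), and promoters from RefSeq. The 31 gene lists came from general knowledge, and the members, lists and questions were chosen with earlier results of these data known. Genes named are CYP1A1, the 12 largest rises and falls with an adjusted p under 0.05, at least 10 reads on average and groups that stood apart, the 6 largest in each direction against BaP by the same rule, interaction calls, the perturbed genes, and listed genes: up to 4 per list by size of change and others by role. ULK4, SNORD81 and SLC20A1 were named after their values were seen. Some genes are not reported here.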

Additional observations from a re-analysis of the deposited data

Results flagged for a closer look

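SLC7A11 was singled out because its change with CSC differed between the GFP and HcRed control lines by a test of the difference itself: the effect in GFP cells minus that in HcRed cells was -0.84 ± 0.14 on the log2 scale (adjusted p = 0.00193, limma-voom interaction over 12 samples). All 3 HcRed CSC libraries (195, 239 and 284 CPM) lay above the 3 HcRed DMSO libraries (137, 117 and 173 CPM), and the 6 GFP libraries lay between 294 and 365 CPM. DDIT3, which with SLC7A11 belongs to the ATF4 list, was at 30.1, 30.5 and 21.1 CPM with DMSO and 13.4, 15.2 and 12.1 CPM with CSC in GFP cells, and at 5.18, 18.8 and 3.95 and 16.4, 20.3 and 15.0 CPM in HcRed cells. What sets the lines apart, which differ in vector and in how it was introduced, was not tested.

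CYP1A1 also had a signal in libraries outside the comparisons above. In the 3 GFP libraries treated with NNK, which is not a polycyclic hydrocarbon, it stood at 85.4, 91.8 and 78.0 CPM, with a mean of 85.0 CPM, above all 3 DMSO libraries (10.7, 4.77 and 7.81 CPM) and below all CSC and BaP libraries. CYP1B1 was at 183, 146 and 214 CPM with NNK against 46.6, 52.5 and 69.5 CPM with DMSO, and NQO1 at 238, 217 and 219 against 163, 152 and 127 CPM. EGR1 was at 199, 178 and 222 CPM with NNK, within the range of its CSC libraries (222, 225 and 156 CPM). These are values without a test.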

How the results depend on the processing

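For CSC against DMSO in GFP cells, the 3575 calls became 1635 with DESeq2 (790 higher, 845 lower), 942 with the GC content and length correction and 1189 with that correction and the replicate block; without 1 library the count was 2479 to 3198, and the other alternatives gave 3269 to 3671. The smaller count under the correction comes with a shift of fold changes along GC content, shown in the report, and the cause of the DESeq2 difference was not tested. For CSC against BaP, the 198 calls became 52 with DESeq2 and 125 in 1 fit of all 95 samples, and 72 to 198 without 1 library, the lowest without BaP replicate 1 and 120 without CSC replicate 2. For the difference between GFP and HcRed, the 1 call became 0 over the 10000 genes by median absolute deviation and with all genes with a read (582 and 927 genes with an unadjusted p under 0.05), 3 with the correction, 3 with the correction and block, and 0 to 4 without 1 library (2 without DMSO replicate 1 or 3 of GFP, 4 without CSC replicate 1 of HcRed).

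Same-numbered libraries correlated by 0.0631 to 0.0794 in their deviations from the group means (CSC and DMSO of GFP), under the 0.1 set for pairing, so the numbers were not treated as pairs. The replicate block gave 3671, 1 and 278 calls in the 3 comparisons. Of 2522 values of 149 named gene comparisons under all alternatives, 2299 kept direction and side of the threshold, 189 lost the call, 22 gained it and 12 turned sign. The losses were uneven: 27 came with DESeq2, 23 with the GC correction and 24 with that correction and the block, more than with any other alternative. Those that turned sign with the GC correction, and with it and the block, were AHR (0.18 and 0.18), NFE2L2 (0.10 and 0.10), SLC7A11 (0.30 and 0.28), CDT1 (-0.11 and -0.11) and ITGB4 (-0.015 and -0.026). ARNT, never called, ran from -0.043 (without DMSO replicate 2) to 0.19 without 1 library, and was -0.020 without CSC replicate 1. Counts of list members that rose or fell stayed within 1.5 times in 928 of 1052 cases. Depth limits genes with few reads: in these libraries 3 counts are 1.98 to 3.04 CPM.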

Other observations

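Small nucleolar RNAs and zinc finger genes were described after some of them appeared among the largest changes, so their counts are given without a test. Of 205 tested genes whose symbols start with SNORA or SNORD, small RNAs that guide the modification of other RNAs, 29 rose (14.1%, against 12% of all genes) and 1 fell after CSC in GFP cells, with a median log2 fold change of 0.43 against 0.0039 over all genes. After the GC correction 12 rose (7.36%, against 3.43%) and 1 fell of 163. Against BaP, 5 of 193 were higher with CSC and none lower, where 1.02% of all genes were higher. These RNAs are shorter than most transcripts and many lie in introns of other genes. Of 496 tested genes whose symbols start with ZNF, 88 fell (17.7%, against 13.0% of all genes) and 21 rose, with a median of -0.24 and a median GC content of 42.9%, and after the correction 14 of 493 fell (2.84%, against 3.60%) and 2 rose.

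ULK4, a kinase-like gene, had 113, 115 and 1047 reads in DMSO replicates 1 to 3, 51, 63 and 685 in the CSC replicates, 23, 17 and 261 in the BaP replicates and 29, 11 and 166 in the NNK replicates, so that replicate 3 was highest in all 4 treatments of the GFP line. Of 9731 genes that averaged at least 10 reads over the 12 GFP libraries, 3 had 1 replicate number at least 3-fold above another in all 4 treatments, among them ULK4 and the small nucleolar RNA SNORD81. The labels do not say what a replicate number stands for.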
